A study of Mus musculus with 8 samples.

Results

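Genes of the glutathione and thioredoxin redox systems were examined in the hearts of mice that had undergone coronary occlusion and reperfusion. All probe sets with 1 gene symbol were searched for glutathione transferases of the alpha, kappa, mu, omega, pi, theta and zeta classes, membrane glutathione transferases, glutathione peroxidases, glutaredoxins, the thioredoxins Txn1 and Txn2, and the genes Gsr, Gss and Txnrd2. This gave 39 genes of the 19938 measured under a single symbol, chosen by name and not by value. They comprised 19 glutathione transferases of the classes alpha to zeta, 3 membrane transferases, 8 glutathione peroxidases, 4 glutaredoxins, 3 genes of the thioredoxin system, and Gss and Gsr for glutathione synthesis and reduction.

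The DJ-1 group was 4 male mice given recombinant DJ-1 protein 1 hour before ligation of the left anterior descending (LAD) coronary artery, and the placebo group was 4 male mice given phosphate-buffered saline (PBS) at the same time. In all 8 mice the artery was tied for 45 minutes and the heart was reperfused for 2 hours, so the placebo hearts are injured hearts and not healthy ones. The labels give the strain as CH3, the age as 8 to 10 weeks and the weight as 25 to 30 g, and do not say how much of each tissue sample lay inside the ischaemic zone. Levels are the authors' log2 expression values from Affymetrix arrays, and each array was taken to stand for 1 mouse. Differences are DJ-1 minus placebo on that log2 scale, so a positive value means a higher level in DJ-1 hearts.

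Glutathione is the most abundant small thiol of the cell. It is made in consecutive steps, the last by glutathione synthetase, and it is used by peroxidases to reduce hydrogen peroxide and lipid hydroperoxides, by transferases to conjugate reactive compounds, and by glutaredoxins to remove glutathione from protein thiols. Glutathione reductase returns the oxidised form to use with electrons from NADPH, and thioredoxin with its reductase forms a parallel route for protein disulfides. Reperfusion of ischaemic heart muscle brings a burst of reactive oxygen species and lipid peroxidation products such as 4-hydroxynonenal, which makes these enzymes of interest there. DJ-1 is itself a redox-sensitive protein, encoded by Park7.

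Several transferase genes are known targets of the oxidant-sensing factor NRF2, which binds the antioxidant response element (ARE), and of AP-1 factors. Promoter sequences of 36 of the 39 genes, with 52 annotated starts, were available from RefSeq (GRCm38.p6). In the 250 bases before each start, the ARE core TGACNNNGC on either strand was found at 4 of the 52 starts (7.69%), against 10.2% of 32851 mouse promoters of that length. The AP-1 letters TGANTCA, a palindrome that can overlap an ARE, were found at 5 of 52 starts (9.62%), against 6.75% of all promoters. The ARE core was found in Gsta3, Gstm5, Gstm7 and Mgst1, and the AP-1 letters in Glrx, Gstm5, Gstp1 and Mgst2. The promoters below belong to genes the results return to: Gstm1 and Gstm5 because they lie in a single gene cluster and were ordered differently across the hearts, Gsta3 because it varied most between hearts among the genes above background, and Mgst1 because it was among the 3 genes of smallest p. They are written 5′ to 3′ on the strand of the gene, with the ARE core in capitals where it was found.
Gstm1, chr3:108017819-108018068, minus strand: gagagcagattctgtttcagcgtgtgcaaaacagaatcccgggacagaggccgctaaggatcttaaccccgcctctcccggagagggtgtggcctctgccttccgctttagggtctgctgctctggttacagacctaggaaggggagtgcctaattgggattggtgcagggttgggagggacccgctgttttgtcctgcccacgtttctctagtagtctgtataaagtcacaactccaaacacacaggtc
Gstm5, chr3:107895604-107895853, plus strand: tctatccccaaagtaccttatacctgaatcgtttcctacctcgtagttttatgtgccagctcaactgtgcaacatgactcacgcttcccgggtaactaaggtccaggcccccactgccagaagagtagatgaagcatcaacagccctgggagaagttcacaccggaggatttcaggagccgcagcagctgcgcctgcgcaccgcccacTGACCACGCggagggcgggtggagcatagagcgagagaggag
Gsta3, chr1:21240335-21240584, plus strand: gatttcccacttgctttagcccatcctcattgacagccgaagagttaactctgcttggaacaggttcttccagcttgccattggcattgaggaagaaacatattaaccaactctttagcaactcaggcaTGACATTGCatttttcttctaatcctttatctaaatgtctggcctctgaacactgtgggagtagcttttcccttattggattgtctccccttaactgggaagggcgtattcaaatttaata
Mgst1, chr6:138140277-138140526, plus strand: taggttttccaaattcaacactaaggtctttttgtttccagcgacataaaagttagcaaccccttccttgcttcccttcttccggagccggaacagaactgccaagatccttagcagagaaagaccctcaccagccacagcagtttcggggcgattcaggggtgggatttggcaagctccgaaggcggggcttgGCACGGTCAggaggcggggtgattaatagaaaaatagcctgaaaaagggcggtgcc
The ARE core began 42 bases before the start in Gstm5, 121 bases before it in Gsta3 and, on the opposite strand, 56 bases before it in Mgst1. Gstm1 and Mgst1 each had 2 annotated starts, of which 1 is shown. A match of these letters describes the sequence and does not show that a factor was bound.

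The arrays held 35556 probe sets, and their medians ran from 5.28 to 5.35 in DJ-1 hearts and from 5.25 to 5.29 in placebo hearts. DJ-1 replicates 3 and 4 had the highest medians. They also lay at 1 end of the first principal component over genes above background, at 15.6 and 13.2, with DJ-1 replicates 1 and 2 and placebo replicate 2 at the other end, between -13.8 and -13.0. The background was judged from genes of the olfactory receptors, little used in heart: the 95th percentile of 1027 such genes was 4.74. Of the 39 genes, 32 had a mean level above this guide, and Gpx2, Gpx5, Gpx6, Gsto2, Gstm6, Gstt4 and Mgst2 did not. All 9 ventricular cardiomyocyte markers were above it, with mean levels of 12.8 to 13.0 in DJ-1 hearts and 12.9 to 13.1 in placebo hearts. In tissue of mixed cells, fewer cells of a type and less RNA per cell cannot be told apart.

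The comparison of DJ-1 with placebo hearts asked which of these genes differed in reperfused myocardium when the protein had been given beforehand. None of the 39 genes passed an adjusted p of 0.05 (limma with Benjamini-Hochberg adjustment over all 19938 genes), and 0 genes (0.0%) passed in the whole table. At an unadjusted p under 0.05, 3 of the 39 were found: Gstt4, which averaged higher in DJ-1 hearts, and Gstt2 and Mgst1, which averaged lower. Over all genes 1194 (5.99%) met that threshold, 3.63% higher and 2.36% lower in DJ-1 hearts, so the share of 3 in 39 was close to the background. Gstt4 was the only gene of the 39 whose DJ-1 and placebo levels did not overlap, with all DJ-1 levels the higher, against 3.22% of all genes in either direction and 1.54% in that one. The mean was higher in DJ-1 hearts for 19 genes and lower for 20, with a median difference of -0.0055, beside 52.5% higher and a median of 0.0082 over all genes. This split depended on the scaling: with each array centred on its median, 12 of the 39 and 40.4% of all genes were higher in DJ-1 hearts.

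**Figure D1:**
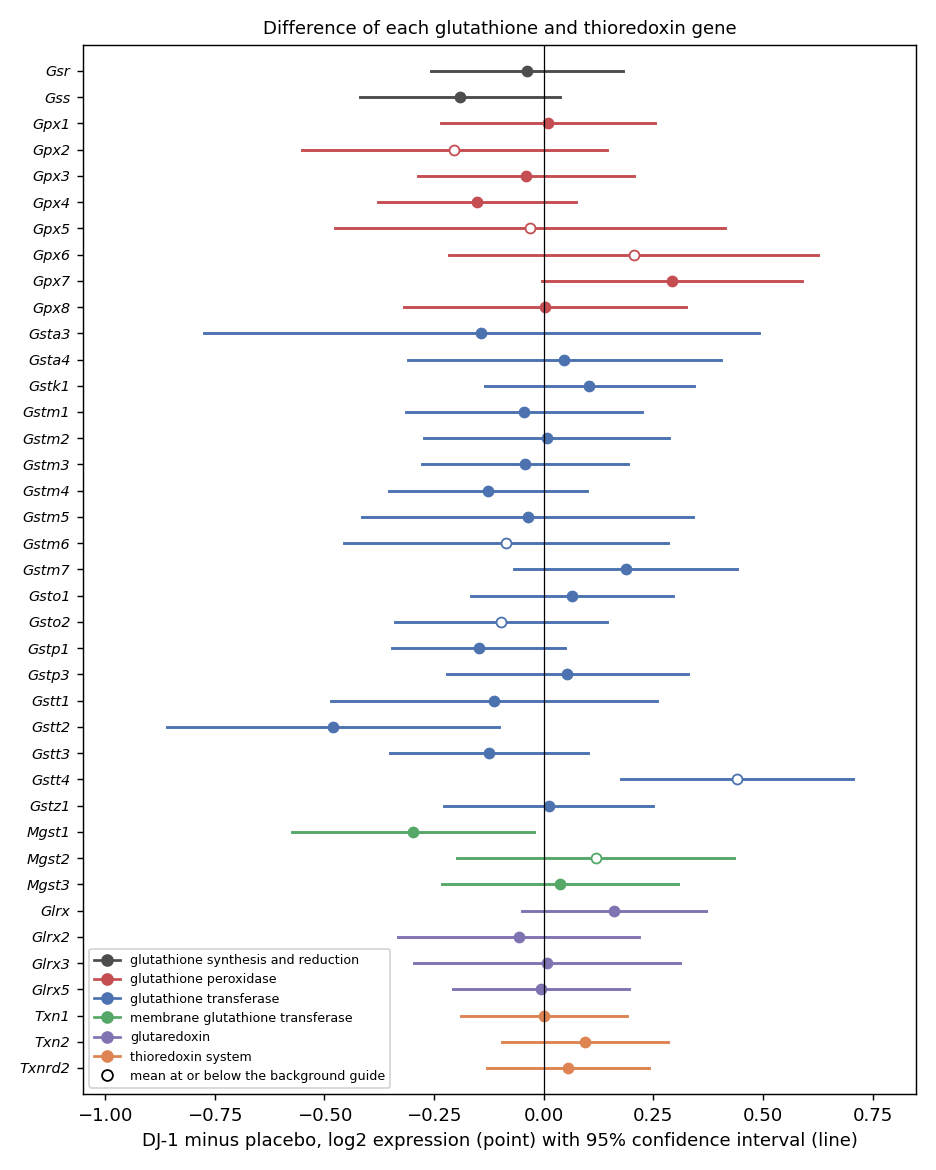
Difference of each of the 39 genes, DJ-1 minus placebo in log2 expression (horizontal axis), with the 95% confidence interval of the limma fit as a line; colours mark the families and open circles the genes at or below the background guide. The points run from -0.48 for Gstt2 to 0.44 for Gstt4, and the intervals of Gstt4, Gstt2 and Mgst1 do not cross 0.

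The precision of the comparison is given by the confidence intervals, whose half-width had a median of 0.264 over the 39 genes and ran from 0.184 to 0.632. For 32 of the 39 genes the whole 95% interval lay between -0.5 and 0.5. Unless an array is left out or another processing or variance model is named, each p-value below comes from the same fit. In that fit the adjusted p was 0.824 or higher for every one of the 39 genes. Its p-values weigh each difference against the spread between samples within the groups, with variances moderated across genes. The labels number these samples within each group. The samples were taken as separate mice although no label ties a number to an animal, so the spread may be technical in part.

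Glutathione synthetase (Gss), which joins glycine to gamma-glutamylcysteine to complete glutathione, stood at 6.53, 6.50, 6.30 and 6.20 in DJ-1 hearts and at 6.71, 6.51, 6.55 and 6.53 in placebo hearts. DJ-1 replicates 2, 3 and 4 were lower than every placebo heart, replicate 2 only narrowly, and DJ-1 replicate 1 lay within the placebo range. The difference was -0.19 (SE 0.10, 95% confidence interval -0.42 to 0.04, limma unadjusted p = 0.0925), and it was -0.06 without DJ-1 replicates 3 and 4. Glutathione reductase (Gsr), which regenerates reduced glutathione, stood at 8.44, 8.28, 8.24 and 8.26 in DJ-1 hearts and at 8.56, 8.27, 8.26 and 8.30 in placebo hearts. The groups overlapped, with placebo replicate 1 the highest heart, and the difference was -0.04 (-0.26 to 0.18).

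Among the glutathione peroxidases, Gpx1, the abundant cytosolic selenoenzyme, had 9.33, 9.04, 9.29 and 8.98 in DJ-1 hearts and 9.27, 8.98, 9.19 and 9.17 in placebo hearts. Its difference of 0.01 (-0.23 to 0.25) was smaller than its spread between replicates. Gpx3, the secreted peroxidase of plasma, had 10.26, 10.18, 10.40 and 10.39 in DJ-1 hearts and 10.62, 10.22, 10.19 and 10.37 in placebo hearts, with a difference of -0.04 (-0.29 to 0.21). The highest and the second lowest of the 8 levels were both placebo hearts. Gpx4, which reduces phospholipid hydroperoxides in membranes and restrains ferroptosis, had 10.52, 10.33, 10.19 and 10.33 in DJ-1 hearts and 10.54, 10.51, 10.61 and 10.32 in placebo hearts. DJ-1 replicate 1 stood among the placebo hearts and DJ-1 replicate 3 was below all of them, and the difference was -0.15 (-0.38 to 0.07). A further Gpx4 probe set gave 10.20 ± 0.14 in DJ-1 hearts and 10.34 ± 0.10 in placebo hearts (SD, n = 4 each), a difference of -0.14.

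Gpx7 and Gpx8 are peroxidases of the endoplasmic reticulum, where they take part in oxidative protein folding. Gpx7 had the most positive difference of the 32 genes above background, with 6.14, 6.01, 5.90 and 5.82 in DJ-1 hearts and 5.28, 5.88, 5.76 and 5.78 in placebo hearts. Placebo replicate 1 was far below the other hearts, and placebo replicate 2 was above DJ-1 replicate 4. The difference of 0.29 (SE 0.14, limma unadjusted p = 0.0517) was 0.16 without placebo replicate 1. Gpx8 had 10.13, 9.79, 9.52 and 9.95 in DJ-1 hearts and 9.78, 10.09, 9.94 and 9.57 in placebo hearts. Both groups spread over about the same range, and the difference was 0.00 (-0.32 to 0.32). Gpx2, the peroxidase of the gastrointestinal tract, was at the background, with 4.79, 4.45, 4.77 and 4.34 in DJ-1 hearts and 4.41, 4.93, 4.70 and 5.11 in placebo hearts (difference -0.20, -0.55 to 0.14). Gpx5, an epididymal form, and Gpx6 lay at the background too, with means of 3.14 and 3.81 in DJ-1 hearts and 3.18 and 3.61 in placebo hearts.

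The theta class transferases held the genes with the most negative and the most positive difference of the 39. Gstt2 had 5.74, 5.23, 5.36 and 5.42 in DJ-1 hearts and 5.46, 6.13, 5.81 and 6.28 in placebo hearts. All placebo hearts but replicate 1 were above every DJ-1 heart, and replicate 1 lay within the DJ-1 range. The difference was -0.48 (SE 0.17, 95% confidence interval -0.86 to -0.10, limma unadjusted p = 0.0171, adjusted p = 0.824), a fold of 0.717. Gstt4 had 4.23, 4.37, 4.36 and 4.55 in DJ-1 hearts and 3.99, 4.11, 4.02 and 3.63 in placebo hearts. Every DJ-1 heart was above every placebo heart, but all 8 levels were below the background guide of 4.74. The difference was 0.44 (SE 0.12, 95% confidence interval 0.18 to 0.70, limma unadjusted p = 0.00352, adjusted p = 0.824).

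Placebo replicate 4 had the highest Gstt2 and the lowest Gstt4 level of the 8 hearts, and without it the differences were -0.36 for Gstt2 (unadjusted p = 0.0568 in limma) and 0.34 for Gstt4 (unadjusted p = 0.00935 in limma). Without placebo replicate 2 the Gstt2 difference was -0.41 (unadjusted p = 0.0521 in limma). With variances not moderated across genes, the unadjusted p in limma was 0.0631 for Gstt2 and 0.0692 for Mgst1. Gstt1 had 7.84, 7.56, 6.97 and 7.59 in DJ-1 hearts and 7.53, 7.88, 7.45 and 7.56 in placebo hearts, and its lowest level by far was that of DJ-1 replicate 3 (difference -0.11, -0.48 to 0.26). Gstt3 had 5.29, 5.40, 5.12 and 5.53 in DJ-1 hearts and 5.52, 5.47, 5.38 and 5.47 in placebo hearts, a difference of -0.12 (-0.35 to 0.10). The 4 theta genes lie within 63.3 kb of chromosome 10 (75774117 to 75837419, GRCm38.p6) in the order Gstt3, Gstt1, Gstt4 and Gstt2, so the genes with opposite differences follow each other in that order.

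Mgst1, a membrane transferase of the endoplasmic reticulum and the outer mitochondrial membrane that also has peroxidase activity, had 6.18, 6.05, 5.83 and 6.07 in DJ-1 hearts and 6.32, 6.65, 6.19 and 6.16 in placebo hearts. DJ-1 replicates 2, 3 and 4 were below every placebo heart, and DJ-1 replicate 1 was above placebo replicate 4. The difference was -0.30 (SE 0.13, 95% confidence interval -0.57 to -0.02, limma unadjusted p = 0.0367, adjusted p = 0.824). It was -0.23 without DJ-1 replicate 3 (limma unadjusted p = 0.109) and -0.19 without placebo replicate 2 (limma unadjusted p = 0.119), and the unadjusted p was also above 0.05 without DJ-1 replicate 2 (0.0561), DJ-1 replicate 4 (0.0523) or placebo replicate 1 (0.0595). The related Mgst3 had 10.20, 9.76, 9.72 and 10.08 in DJ-1 hearts and 9.97, 10.00, 9.88 and 9.76 in placebo hearts. DJ-1 replicates 1 and 4 were above every placebo heart and DJ-1 replicate 3 was below every one, and the difference was 0.04 (-0.23 to 0.31). Mgst2, which can make leukotriene C4, was at the background, with means of 4.66 in DJ-1 hearts and 4.55 in placebo hearts.

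**Figure D2:**
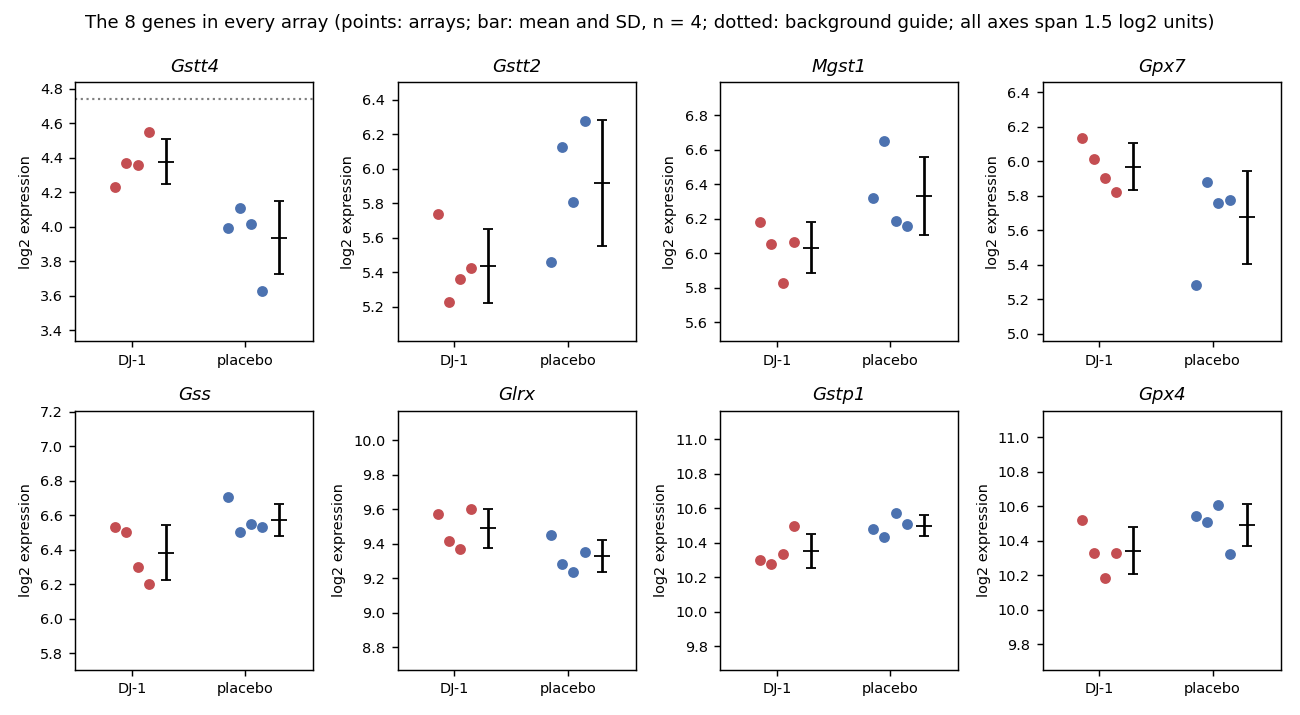
Log2 expression (vertical axes, each spanning 1.5 units) of 8 genes in every array, in order of replicate number, with DJ-1 hearts at the left and placebo hearts at the right of each panel; bars give the mean and SD of 4 arrays and the dotted line the background guide of 4.74. The groups are apart only for Gstt4, which lies below the guide, and overlap in at least 1 array for the other genes.

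The levels of markers of other cell types were compared with these results. All 11 neutrophil markers averaged higher in DJ-1 hearts, by a median difference of 0.77, and 10 of the 11 were above background, Ltf being the exception. Their mean level ran from 5.79 to 7.34 in DJ-1 hearts and from 4.80 to 7.07 in placebo hearts. It was lowest in placebo replicate 4, the array with the highest Gstt2 and the lowest Gstt4 level. Placebo replicate 2, with the next highest Gstt2 level (6.13), had the highest placebo mean of these markers. The highest Gstt4 level (4.55) was in DJ-1 replicate 4, which had the lowest DJ-1 mean of these markers. The 4 erythroid markers measured averaged higher in DJ-1 hearts too, with a median difference of 0.34, and their mean level ran from 6.09 to 6.53 in DJ-1 hearts and from 5.80 to 6.19 in placebo hearts. Among them Slc4a1, the anion exchanger of red cells, had 6.47, 6.09, 6.90 and 6.32 in DJ-1 hearts and 5.95, 5.97, 5.83 and 5.69 in placebo hearts. These levels did not overlap, and the difference was 0.59 (SE 0.16, limma unadjusted p = 0.0028, adjusted p = 0.824). Of all genes, 1.54% lay without overlap and higher in DJ-1 hearts. Epb42 was at the background. Smooth muscle and pericyte markers had a median difference of -0.11, with 6 of 8 lower, or 5 of 8 after quantile or cyclic loess normalization. Their mean level ran from 8.44 to 8.69 in DJ-1 hearts and from 8.53 to 8.72 in placebo hearts. Kcnj8 and Pdgfrb of this list did not overlap and were lower in DJ-1 hearts, by -0.44 (SE 0.13) and -0.30 (SE 0.12). Each had an adjusted p of 0.824 in limma. The highest DJ-1 and lowest placebo levels were close, at 8.50 and 8.53 for Kcnj8 and 8.82 and 8.84 for Pdgfrb. Of all genes, 1.68% lay without overlap in that direction. Acta2 and Cnn1 of the same list averaged higher in DJ-1 hearts, by 0.21 (SE 0.11) and 0.29 (SE 0.21). Fibroblast markers had 7 of 8 lower with a median of -0.06. This was 8 of 8 and -0.10 after median centring, and 6 of 8 and -0.05 after quantile or cyclic loess normalization. Endothelial markers had 6 of 8 lower with a median of -0.11. This was 7 of 8 and -0.16 after median centring, and 5 of 8 and -0.09 after quantile or cyclic loess normalization. Median centring left 40.4% of all genes higher in DJ-1 hearts, against 52.5% before it. All smooth muscle and pericyte, fibroblast and endothelial markers were above background. Among all genes above background, 6223 of 13693 averaged higher before centring, with a median of -0.014. Mean levels ran from 8.34 to 8.50 in DJ-1 hearts and 8.45 to 8.62 in placebo hearts for fibroblast markers, and from 9.25 to 9.43 in DJ-1 hearts and 9.37 to 9.53 in placebo hearts for endothelial markers. The part of these cell types in the levels of Gstt2, Gstt4 and Mgst1 was not tested.

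The mu class is a family of 7 neighbouring genes that conjugate electrophiles and whose members are close in sequence, so probe sets of the class may respond in part to more than 1 gene. They lie within 149.3 kb of chromosome 3 (107895854 to 108045179, GRCm38.p6) in the order Gstm5, Gstm7, Gstm6, Gstm3, Gstm2, Gstm1 and Gstm4. Of the 7, 2 averaged higher and 5 lower in DJ-1 hearts, or 1 and 6 after median centring of the arrays, and 0 had an unadjusted p under 0.05 in limma. Gstm1 had 10.35, 10.55, 10.55 and 10.74 in DJ-1 hearts and 10.76, 10.41, 10.43 and 10.78 in placebo hearts, a difference of -0.04 (-0.31 to 0.22). Gstm4 had 8.61, 8.61, 8.36 and 8.73 in DJ-1 hearts and 8.81, 8.63, 8.62 and 8.76 in placebo hearts, a difference of -0.13 (-0.35 to 0.10). Both genes were highest in placebo replicates 1 and 4. Gstm7 had 9.79, 9.80, 9.73 and 10.13 in DJ-1 hearts and 9.71, 9.53, 9.59 and 9.86 in placebo hearts. Placebo replicate 4 was above 3 of the DJ-1 hearts, and the difference was 0.19 (-0.07 to 0.44).

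Gstm5 had 9.16, 8.77, 8.49 and 9.04 in DJ-1 hearts and 8.76, 9.31, 8.91 and 8.62 in placebo hearts, a difference of -0.04 (-0.41 to 0.34). Its order across the hearts was unlike that of Gstm1, Gstm2 and Gstm3. Those 3 genes had their lowest DJ-1 level in replicate 1 and their lowest placebo level in replicate 2, which are the arrays where Gstm5 was highest in each group. That order was found in 3 of the 32 genes above background (9.38%), close to the 8.58% of all genes above background. Gstm2 and Gstm3 differed between the groups by 0.01 and -0.04. A second Gstm3 probe set of lower level had means of 5.07 in DJ-1 hearts and 5.18 in placebo hearts. It did not follow the order of the first Gstm3 probe set, since its lowest levels were 4.78 in DJ-1 replicate 2 and 4.95 in placebo replicate 3. Gstm6 was at the background with means of 4.13 in DJ-1 hearts and 4.22 in placebo hearts.

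**Figure D3:**
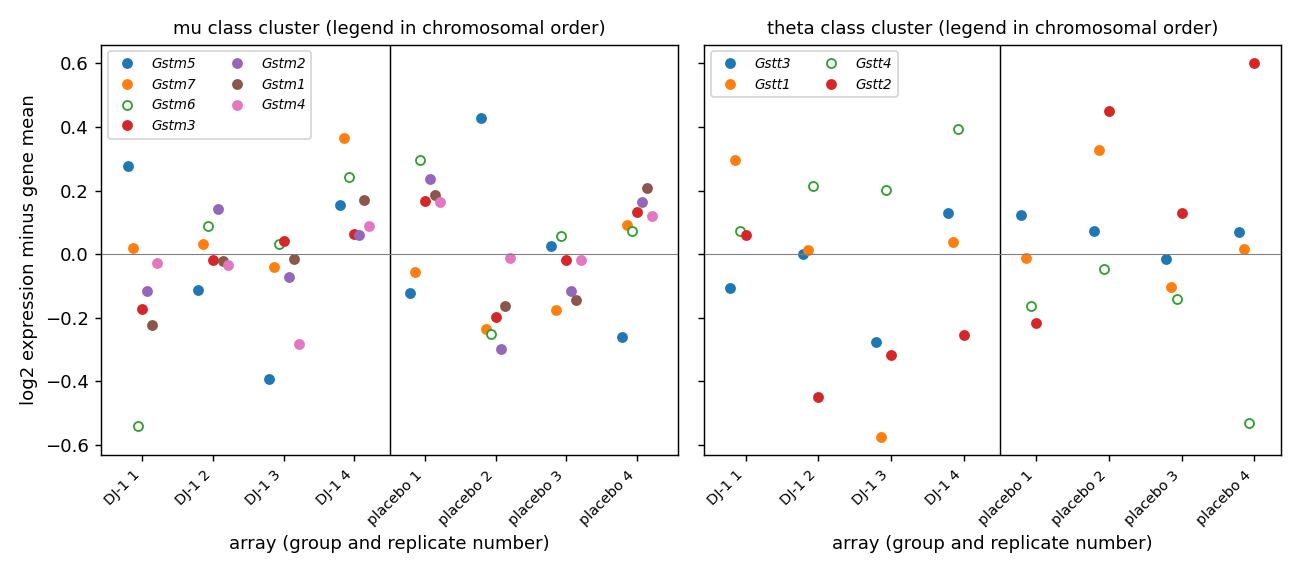
Log2 expression minus the gene's mean over 8 arrays (vertical axis) in each array for the mu class genes (left) and the theta class genes (right), with DJ-1 arrays left of the line in each panel and open circles for genes at or below the background guide. Gstm5 lies above its mean in DJ-1 replicate 1 and placebo replicate 2, where Gstm1, Gstm2 and Gstm3 lie below theirs, and Gstt2 and Gstt4 lie on opposite sides in placebo replicate 4.

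Among the other transferases, Gsta4, whose product conjugates 4-hydroxynonenal with high efficiency, had 10.12, 9.65, 9.28 and 9.63 in DJ-1 hearts and 9.50, 9.90, 9.54 and 9.55 in placebo hearts. The highest and the lowest level were both DJ-1 hearts, and the difference was 0.05 (-0.31 to 0.40). Gsta3, another alpha class transferase, varied most within groups, with 7.15, 6.17, 5.60 and 5.93 in DJ-1 hearts and 6.31, 6.86, 6.28 and 5.96 in placebo hearts. DJ-1 replicate 1 was the highest and DJ-1 replicate 3 the lowest of all 8 hearts, and the group difference of -0.14 (-0.77 to 0.49) became -0.46 when DJ-1 replicate 1 was left out and 0.06 when replicate 3 was. Gstp1, the pi class transferase that also binds the stress kinase JNK, had 10.30, 10.27, 10.33 and 10.50 in DJ-1 hearts and 10.48, 10.43, 10.57 and 10.51 in placebo hearts. DJ-1 replicates 1, 2 and 3 were below every placebo heart, and the difference was -0.15 (-0.34 to 0.05). The 2 probe sets annotated to both Gstp1 and Gstp2, which are not among the 39 genes, differed by -0.09 and -0.08. Gstp3 had means of 4.91 in DJ-1 hearts and 4.86 in placebo hearts, close to the background.

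Gstk1, a transferase of mitochondria and peroxisomes, had 11.56, 11.41, 11.21 and 11.52 in DJ-1 hearts and 11.18, 11.43, 11.24 and 11.43 in placebo hearts, a difference of 0.10 (-0.13 to 0.34). Gsto1, an omega class enzyme with thioltransferase and dehydroascorbate reductase activity, had 9.94, 9.75, 9.89 and 9.74 in DJ-1 hearts and 9.98, 9.65, 9.63 and 9.80 in placebo hearts (difference 0.07, -0.17 to 0.30). Gstz1, which acts in tyrosine breakdown as maleylacetoacetate isomerase, had 8.24, 8.09, 7.96 and 7.84 in DJ-1 hearts and 7.98, 8.19, 7.95 and 7.96 in placebo hearts (difference 0.01, -0.23 to 0.25). The DJ-1 and placebo levels of these 3 genes overlapped. Gsto2 was at the background, with means of 4.54 in DJ-1 hearts and 4.63 in placebo hearts. The 4 probe sets shared by Gsta1, Gsta2 and 2 predicted genes were not counted among the 39 genes, and their levels ran from 4.05 to 5.14 in DJ-1 hearts and from 3.64 to 5.27 in placebo hearts.

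Glutaredoxin (Glrx), the cytosolic enzyme that removes glutathione from protein thiols, had 9.57, 9.42, 9.37 and 9.60 in DJ-1 hearts and 9.45, 9.28, 9.23 and 9.35 in placebo hearts. Placebo replicate 1 lay within the DJ-1 range and the other 3 placebo hearts were below it. The difference was 0.16 (SE 0.10, 95% confidence interval -0.05 to 0.37, limma unadjusted p = 0.12). Glrx2, the mitochondrial form, had 10.19, 10.09, 9.86 and 10.04 in DJ-1 hearts and 9.80, 10.21, 10.33 and 10.06 in placebo hearts (difference -0.06, -0.33 to 0.22). Glrx3 and Glrx5 act in iron-sulfur cluster handling. Glrx3 had 6.91, 7.09, 6.71 and 6.56 in DJ-1 hearts and 6.89, 6.78, 6.53 and 7.04 in placebo hearts (difference 0.01, -0.30 to 0.31), and a probe set it shares with a predicted gene differed by -0.14. Glrx5 had 9.28, 9.26, 9.39 and 9.13 in DJ-1 hearts and 9.27, 9.20, 9.35 and 9.24 in placebo hearts, a difference of -0.01 (-0.21 to 0.19).

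Thioredoxin 1 (Txn1), the cytosolic disulfide reductase, had 12.68, 12.64, 12.55 and 12.64 in DJ-1 hearts and 12.65, 12.70, 12.61 and 12.53 in placebo hearts, a difference of 0.00 (-0.19 to 0.19). Its mitochondrial counterpart Txn2 had 11.00, 10.83, 10.81 and 10.94 in DJ-1 hearts and 10.82, 10.77, 10.81 and 10.81 in placebo hearts. DJ-1 replicates 1, 2 and 4 were above every placebo heart, replicate 2 only narrowly, and replicate 3 was among them, with a difference of 0.09 (-0.09 to 0.28). The mitochondrial thioredoxin reductase Txnrd2, a selenoprotein, had 7.07, 7.04, 7.03 and 7.08 in DJ-1 hearts and 7.06, 6.91, 7.06 and 6.98 in placebo hearts, a difference of 0.06 (-0.13 to 0.24). The intervals of all 3 genes included 0, and the direction of 1 of the 3 turned with the scaling, since 2 were higher and 1 lower after cyclic loess or median centring.

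Differences between individual hearts exceeded the difference between the groups for many of these genes. In 8 of the 32 genes above background (25.0%), DJ-1 replicate 1 was the highest and replicate 3 the lowest DJ-1 heart while replicate 2 was the highest placebo heart. These genes were Gpx8, Gsta3, Gsta4, Gstm5, Gstt1, Mgst1, Mgst3 and Txn1, and 6.02% of the 13693 genes above background showed the same order. The order was picked out after the values had been seen, so its share is given as a description with no test. DJ-1 replicate 1 was the highest of all 8 hearts for 9 of the 32 genes (28.1%), against 12.6% of all genes above background. DJ-1 replicate 3 was the lowest for 11 (34.4%), against 16.0%. Placebo replicate 2 was the highest for 4 (12.5%), against 11.3%, and the lowest for 6 (18.8%), against 12.8%. These shares come from the same values as the order and in part from the same genes, so they add no separate evidence for it. The arrays highest in this order, DJ-1 replicate 1 and placebo replicate 2, were also at the low end of the first principal component. Their neutrophil marker means were 0.82 and 0.81 above the mean of all hearts, beside 1.08 for DJ-1 replicate 2. DJ-1 replicate 3, the lowest DJ-1 heart of the order, lay at 15.6 on that component and had a neutrophil marker mean of 0.004. The part of these array differences in the order was not tested.

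**Figure D4:**
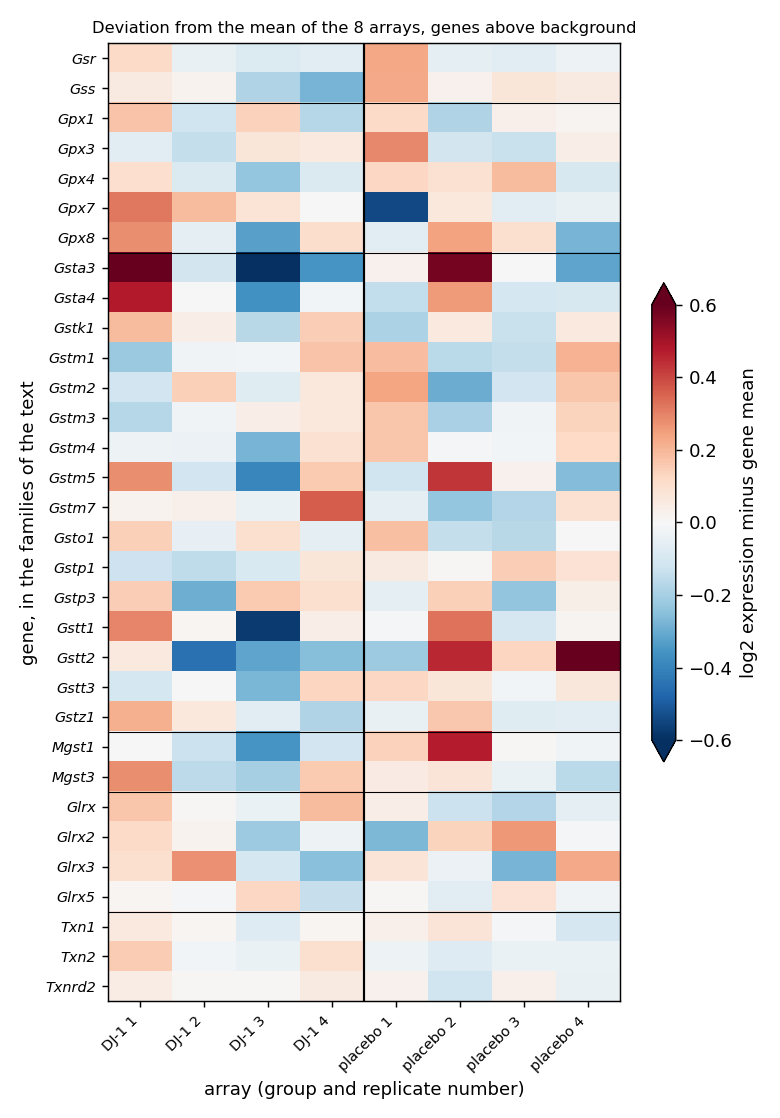
Log2 expression minus the gene's mean over the 8 arrays (colour scale) for the 32 genes above the background guide, in rows by family, with DJ-1 arrays left of the black line and placebo arrays right of it. Several rows, among them Gpx8, Gsta3, Gsta4, Gstm5 and Gstt1, are above their mean in DJ-1 replicate 1 and placebo replicate 2 and below it in DJ-1 replicate 3.

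Other genes of the same pathways were read from the same fit. Of 14 measured genes of glutathione precursor supply, synthesis and turnover, 9 averaged higher and 5 lower in DJ-1 hearts (median 0.02, but -0.02 after median centring of the arrays), and 0 had an unadjusted p under 0.05. Those of smallest p were Slc3a2, the heavy chain of the cystine transporter, at 0.23 (SE 0.11), Gclc, the catalytic subunit of the enzyme that makes gamma-glutamylcysteine, at 0.18 (SE 0.12), and Cbs, an enzyme of cysteine synthesis, at 0.12 (SE 0.10). Of 16 further thioredoxin-related genes, 11 had a higher and 5 a lower mean (median 0.05, but 0.01 after median centring, with 10 and 6, and 13 and 3 after quantile or cyclic loess normalization), and 0 had an unadjusted p under 0.05. Txnip, the inhibitor of thioredoxin, had 11.59, 11.29, 11.49 and 11.46 in DJ-1 hearts and 10.72, 10.81, 11.48 and 11.42 in placebo hearts. Placebo replicates 1 and 2 were below all other hearts, and placebo replicates 3 and 4 were within the DJ-1 range. Txndc5, a disulfide isomerase of the endoplasmic reticulum, differed by -0.13 (SE 0.08), and Txndc12 by 0.13 (SE 0.09). The Txndc5 levels did not overlap, but only narrowly, with 7.465 the highest in DJ-1 hearts and 7.467 the lowest in placebo hearts. A lower DJ-1 level without overlap was met by 1.68% of all genes.

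NADPH is the electron source of both systems, and 12 of 15 measured genes of its supply averaged lower in DJ-1 hearts under each scaling. The median difference was -0.07, or -0.12 after median centring, -0.06 after quantile and -0.05 after cyclic loess normalization. Of all genes, 52.5% averaged higher in DJ-1 hearts, or 40.4% after median centring. All 15 genes of the list were above background. Among all genes above background, 6223 of 13693 averaged higher before centring, with a median of -0.014. G6pdx was not measured under a single symbol. Mthfd2, Pgd and Pgls averaged higher, by 0.23, 0.08 and 0.06. Transketolase (Tkt), an enzyme of the pentose phosphate pathway, had 6.37, 6.43, 6.40 and 6.37 in DJ-1 hearts and 6.70, 6.55, 6.57 and 6.63 in placebo hearts. The groups did not overlap, and the difference was -0.22 (SE 0.08, limma unadjusted p = 0.025, adjusted p = 0.824). The cytosolic malic enzyme Me1 had 8.83, 8.81, 8.74 and 8.82 in DJ-1 hearts and 9.09, 8.89, 8.95 and 8.95 in placebo hearts, also without overlap, with a difference of -0.17 (SE 0.09). Of all genes, 1.68% lay without overlap and lower in DJ-1 hearts. The mitochondrial Me2 differed by -0.28 (SE 0.13) with overlap. Tkt was the 1 gene of the list with an unadjusted p under 0.05 in limma and a lower mean, a direction met by 2.36% of all genes.

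Of 10 genes of selenoprotein synthesis, which the selenium-containing peroxidases and Txnrd2 require, 4 had a higher and 6 a lower mean (median -0.06), or 5 and 5 after quantile or cyclic loess normalization (median -0.02) and 3 and 7 after median centring (median -0.10). Sephs2, which supplies selenophosphate, had 6.37, 6.34, 6.27 and 6.43 in DJ-1 hearts and 6.93, 6.37, 6.56 and 6.62 in placebo hearts, a difference of -0.27 (SE 0.12, limma unadjusted p = 0.0456, adjusted p = 0.824). Sepsecs, which makes the selenocysteinyl-tRNA, differed by -0.16 (SE 0.10), and the selenoprotein P receptor gene Lrp8 by 0.14 (SE 0.10). Of 8 measured genes for export and further processing of glutathione conjugates, 6 had a higher and 2 a lower mean (median 0.07), or 5 and 3 under each other scaling (median 0.03 after median centring), and 0 had an unadjusted p under 0.05. The conjugate exporter Abcc1 differed by -0.20 (SE 0.12), the N-acetyltransferase gene Nat8, at the background, by 0.18 (SE 0.11), and the aminoacylase gene Acy1 by 0.11 (SE 0.09). No gene of these lists passed an adjusted p of 0.05 in limma.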

How the data were processed

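RNA of 8 hearts was hybridised to Affymetrix arrays, 4 per group, with 100 ng of total RNA of an integrity number above 7 per the labels' protocols. The deposited values are log2 expression per probe set, made by the authors with RMA per the submitters' processing notes; the version is not given in the sources used here. No batch is labelled, so a batch that follows the groups cannot be told apart from treatment. Of 35556 probe sets, 21789 carried 1 symbol, 1621 several and 12146 none. The probe set with the highest mean was taken for each gene, giving 19938 genes. limma 3.58.1 in R 4.3.3 (lmFit and eBayes, two-sided, no covariate, Benjamini-Hochberg adjustment) compared the groups, and was tested on simulated data. The number of arrays limits the precision. Values of every array are given for the 12 genes of smallest p, genes without overlap, 24 core genes, and the 4 above background with the largest SD, and each pathway list is shown by its 3 genes of smallest p. The genes and lists were chosen with earlier results of these data known. Alternatives were other scalings, a level filter, another probe set rule, other variance models, the replicate number as a block, and leaving out arrays. Marker lists had further median differences of -0.04 (8 of monocytes and macrophages), -0.03 (9 of cardiomyocytes) and 0.06 (6 of adipocytes).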

Additional observations from a re-analysis of the deposited data

Results flagged for a closer look

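In 104 groups of 4 arrays checked with Dixon's ratio, 6 had an array set apart from the other 3, and chance gives about 5 in 100. Gsr was highest in placebo replicate 1, at 8.558 against 8.258 to 8.295 in the other placebo hearts. Placebo replicate 2 was set apart for the aldehyde-conjugating Gsta4, at 9.9 against 9.497 to 9.549, and for Gstz1, at 8.188 against 7.952 to 7.979. DJ-1 replicate 2 was lowest for Gpx6, at 3.359 against 3.923 to 4.025 in the other DJ-1 hearts, and for Gstp3, at 4.589 against 4.981 to 5.039. The mean of the endothelial markers, centred on all hearts, was lowest in placebo replicate 1, at -0.057 against 0.085 to 0.106 in the other placebo hearts.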

How the results depend on the processing

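Over 17 alternatives, or 16 for the 7 genes at or below background, 17 of the 39 genes kept the sign of their difference in every one run and 22 had the opposite sign in at least 1. The level filter, the variance models and the replicate block could turn no sign, because they leave each difference unchanged. The probe set rule also leaves it unchanged for genes with 1 probe set. The lowest adjusted p of any of the 39 genes was 0.651 (limma). No gene of the whole table passed an adjusted p of 0.05 in limma (1194 at an unadjusted p under 0.05), except 1 without DJ-1 replicate 3: Pramel27, below the background guide, with an adjusted p of 0.044 there and 0.105 with all arrays. It is named because of that count. Leaving out 1 array gave 0 to 1 such genes. The number of the 39 genes without overlap was 1 with all arrays, 2 with each array centred on its median, 2 after cyclic loess, 0 among genes above background, 1 to 4 when an array was omitted, and 5 when DJ-1 replicates 3 and 4 both were, an alternative chosen after seeing the data. Fewer arrays overlap less often by construction, and Gstt4 is not tested above background. Of the 39, 19 were higher in DJ-1 hearts with all arrays, 12 with median centring, 20 with quantile normalization, 15 to 22 when an array was omitted and 23 without DJ-1 replicates 3 and 4. The number with an unadjusted p under 0.05 was 3, and 2 to 4 over the alternatives. For this count and the count without overlap, the share of all genes under each alternative is not given here. Neither count can therefore be set against a background there. Adding a replicate block to the limma fit left 0 genes past an adjusted p of 0.05. The unadjusted p fell below 0.05 for 3 of the 39, the same number as without the block. Overlap is read from the levels themselves, so the block could not change the count of 1. Same-numbered arrays had correlated deviations of -0.05, 0.23, 0.24 and 0.01, so the numbers were not taken as pairs.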
